A study of Mus musculus with 24 samples.

Results

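Slc22 genes encode membrane carriers for organic ions, and 9 of them that are known from the proximal tubule of the kidney, Slc22a2, Slc22a4, Slc22a5, Slc22a6, Slc22a7, Slc22a8, Slc22a12, Slc22a18 and Slc22a19, were picked out by gene symbol among the 54532 genes of a whole-kidney RNA-seq count table. The study asked whether polycystic kidney disease is eased in mice when the site for the microRNA miR-17 is removed from the messenger RNA of Pkd1, the gene for polycystin-1. One kidney library was counted for each of 24 C57BL/6 mice killed at 18 days of age. Every mouse had 1 copy of the Pkd1 RC allele, which encodes a protein with an amino acid change and reduced function. In the noncystic RC/+ mice (n = 3) the second allele was floxed but intact, and in the cystic RC/- mice (n = 5) it was inactivated by Ksp-Cre, a Cre recombinase under the promoter of kidney-specific cadherin. In the edited mice the RC allele also lacked the miR-17 site, in the D18 line from founder 3 (RC/+ D18, n = 3; RC/- D18, n = 5) and in the D53 line from founder 2 (RC/+ D53, n = 3; RC/- D53, n = 5). Each edited line therefore descended from 1 founder, and Ksp-Cre was present in the cystic groups alone, so an effect of the transgene itself cannot be told apart from that of the cystic genotype. The paper bred edited and unedited genotypes from the same pairs, but the founder of the unedited mice counted here is not given. They were 1 shared control for both lines, so in comparisons with them founder background cannot be told apart from the edit. No treatment was given, and the labels name no batch.

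Organic anion transporters of this family take up drugs, toxins and metabolites from the blood into the proximal tubule cell in exchange for dicarboxylates, after which efflux pumps of the brush border pass them into the urine. Organic cation transporters take up positively charged compounds from the blood. The urate transporter returns filtered urate to the cell, and the carnitine transporters recover carnitine, which carries long-chain fatty acids into mitochondria. The proximal tubule is the main site of these carriers in the nephron, and several of them are under the control of the nuclear receptor Hnf4a.

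Library totals were 20379982 to 30837488 counts, and a member gene had between 71 and 12256 counts in a library. All 9 members passed the expression limit of a mean log2 CPM of at least -3, where CPM is the usual counts-per-million scale, so 9 of 9 were tested among 22570 genes. Proximal tubule markers summed to 24711 to 25765 CPM in RC/+ kidneys over 20 genes, and to 6801 to 12400 CPM in RC/- kidneys. In such whole-tissue libraries fewer cells of a type and less RNA per cell cannot be told apart. A set of 8 libraries, replicates 20 to 22 of RC/- D18 and all 5 of RC/- D53, stood apart from the other 16 by skeletal muscle markers, which summed to 154 to 203 CPM over 7 genes against 6.94 to 10.99 CPM. Pkd1 counts ranged from 38.4 to 71.4 CPM and do not separate the alleles, so they check no genotype here.

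The members lie on 4 chromosomes of the GRCm38 genome (GENCODE M21 positions), and each has 10 to 12 exons in its longest annotated transcript. Slc22a8 (ENSMUSG00000063796, chr19:8591254-8611835) and Slc22a6 (ENSMUSG00000024650, chr19:8618039-8628299) are neighbours on the plus strand of chromosome 19. Slc22a19 (ENSMUSG00000024757, chr19:7673061-7711310) and Slc22a12 (ENSMUSG00000061742, chr19:6535845-6543032) lie on the minus strand of the same chromosome. Slc22a5 (ENSMUSG00000018900, chr11:53864542-53891660) and Slc22a4 (ENSMUSG00000020334, chr11:53983123-54028090) flank Slc22a21 on the minus strand of chromosome 11. Slc22a2 (ENSMUSG00000040966, chr17:12584132-12628488, plus strand) and Slc22a7 (ENSMUSG00000067144, chr17:46432183-46438457, minus strand) are far apart on chromosome 17, and Slc22a18 (ENSMUSG00000000154, chr7:143473736-143499334, plus strand) is in an imprinted cluster on chromosome 7. Of the exon bases of Slc22a12, 30.1% are shared with exons of Nrxn2 on the opposite strand, and the strand setting of the counting is not given in the sources used here. Nrxn2 was at 7.43 to 13.3 CPM in all 24 libraries. The closest transcript of another gene to any member was that of Slc22a21, 88.8% identical to Slc22a5 over 2115 bases.

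Start-site sequences from RefSeq (GRCm38.p6), the 250 bases before the start, were matched for 8 of 9 members, and Slc22a7 had no entry. Apart from that of Slc22a19, these starts are not those of the GENCODE positions above. The Slc22a8 window lies inside the GENCODE span of its gene, and those of Slc22a6 and Slc22a5 stop short of theirs. Slc22a6 and Slc22a8 are shown because they are adjacent and are the main anion carriers of the basolateral membrane, and the carnitine carrier Slc22a5 is shown as the contrast in base composition. Capitals mark each CG pair. The sequences are written 5′ to 3′ on the strand of the gene, at chr19:8617746-8617995 (plus), chr19:8592932-8593181 (plus) and chr11:53891704-53891953 (minus).
Slc22a6: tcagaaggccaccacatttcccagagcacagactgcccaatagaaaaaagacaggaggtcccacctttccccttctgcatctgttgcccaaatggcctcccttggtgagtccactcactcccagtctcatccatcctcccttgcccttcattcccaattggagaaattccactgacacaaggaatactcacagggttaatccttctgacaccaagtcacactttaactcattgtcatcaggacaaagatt
Slc22a8: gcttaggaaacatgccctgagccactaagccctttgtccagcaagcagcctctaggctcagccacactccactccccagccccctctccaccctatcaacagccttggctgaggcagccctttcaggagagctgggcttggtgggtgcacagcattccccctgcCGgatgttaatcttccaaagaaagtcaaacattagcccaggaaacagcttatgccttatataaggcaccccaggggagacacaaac
Slc22a5: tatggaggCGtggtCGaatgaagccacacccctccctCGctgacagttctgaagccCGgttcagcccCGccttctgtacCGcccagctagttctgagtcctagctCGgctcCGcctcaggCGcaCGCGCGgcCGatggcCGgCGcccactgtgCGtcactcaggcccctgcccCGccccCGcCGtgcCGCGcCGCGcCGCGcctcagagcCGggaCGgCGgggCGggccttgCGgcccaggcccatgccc

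The window of Slc22a6 held 0 CG pairs at 48.4% G and C, that of Slc22a8 held 1 at 55.2%, and that of Slc22a5 held 30 at 73.6%. The window of Slc22a4 held 26 at 71.2%, and those of the remaining 4 members held 0 to 6 at 35.6% to 52.8%. Over all 32851 windows in the table the median was 6 CG pairs and 52.4% G and C. These letters describe the windows and are no measure of binding or methylation.

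Levels were divided by the length of the annotated exons to set genes beside each other. That length joins the exons of all annotated transcripts of a gene. It was 1699 bases for Slc22a18, 3910 for Slc22a8 and 5431 for Slc22a19. Which transcripts were present was not measured, so the order below depends on this choice of length. In RC/+ kidneys Slc22a18 was highest, at 119 ± 7.64 CPM per kilobase (SD, n = 3). Below it came Slc22a8 at 75.3 ± 6.85, Slc22a12 at 71.2 ± 12.4, Slc22a5 at 63.6 ± 2.56, Slc22a6 at 44.1 ± 3.34 and Slc22a2 at 43.9 ± 3.63 CPM per kilobase. Slc22a4 (11.1 ± 1.84) and Slc22a19 (11.05 ± 0.493) formed a lower pair, and Slc22a7 was lowest at 3.09 ± 0.0513 CPM per kilobase. Neighbours in this order that did not differ beyond their spread were Slc22a8 and Slc22a12, Slc22a12 and Slc22a5, Slc22a6 and Slc22a2, and Slc22a4 and Slc22a19. On this scale Slc22a18 ranked highest and Slc22a7 lowest in each of the 6 groups.

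**Figure D1:**
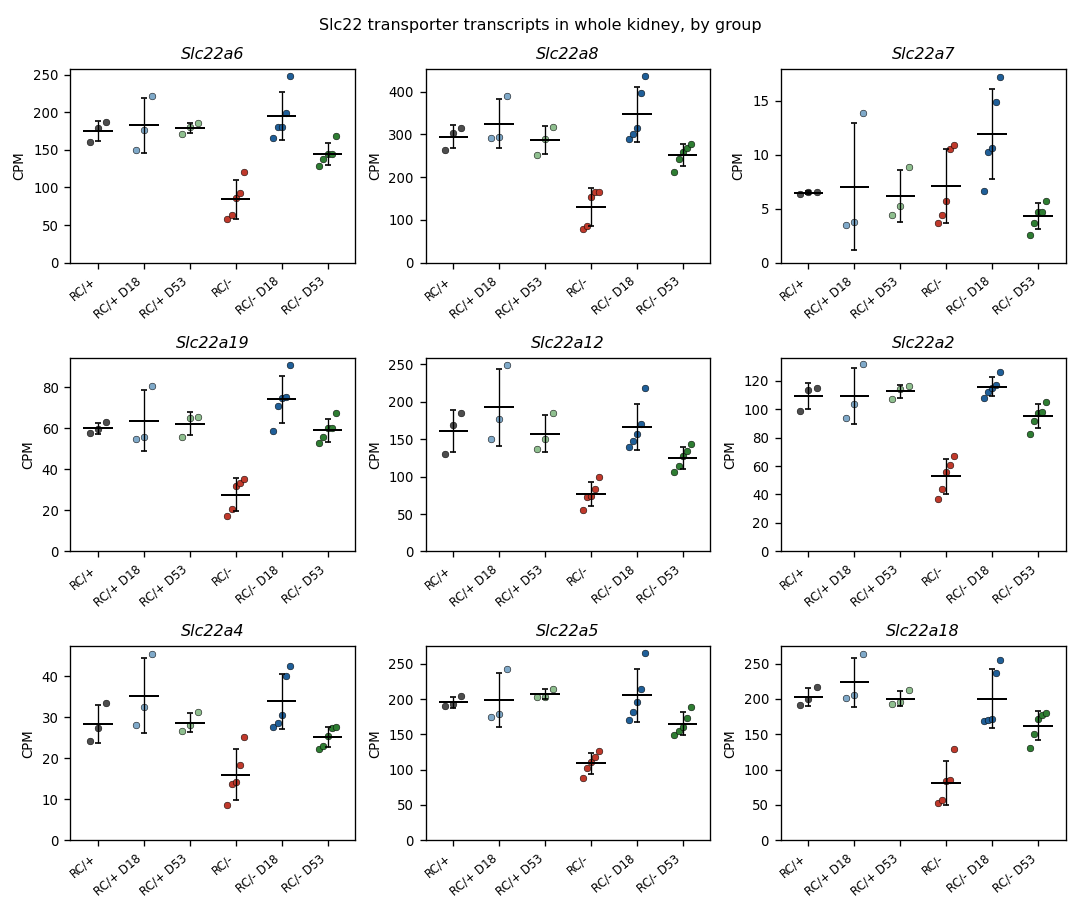
CPM of the 9 Slc22 members in each of the 24 libraries (points) by group, with the mean (bar) and SD (whiskers) of 3 or 5 mice. In 7 of the panels every unedited RC/- library (red) lies below every RC/+ library (dark grey), and Slc22a4 and Slc22a7 are the exceptions.

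The comparison of unedited RC/- with RC/+ kidneys asks how the carriers differ with cystic disease. Of the 9 members, 8 were lower in RC/- at an adjusted p below 0.05, where 12.2% of all tested genes were called lower, and Slc22a7 was not called. In 7 of 9 every RC/- library was below every RC/+ library, a separation found in 11.6% of all genes. The median log2 fold change of the members was -1.07, beside a median of 0.14 over all genes (0.01 with TMM factors). edgeR's quasi-likelihood test and DESeq2 also called 8.

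Slc22a6 (Oat1) was at 161, 179.7 and 186 CPM in the RC/+ kidneys and at 57.5, 62.8, 86.1, 92.8 and 121 CPM in the RC/- kidneys. No RC/- value reached the lowest RC/+ value, and the log2 fold change was -1.11 ± 0.17 (SE, adjusted p = 1.35e-05), or 46.2% of the RC/+ level. Its neighbour Slc22a8 (Oat3), which prefers bulkier anions, was at 264, 304 and 316 CPM in RC/+ and at 78.0, 84.8, 154, 165 and 166 CPM in RC/-. The RC/- kidneys fell into replicates 16 and 17 at 78.0 and 84.8 CPM and the other 3 at 154 to 166 CPM, all below RC/+, and the log2 fold change was -1.26 ± 0.20 (SE, adjusted p = 2.58e-05).

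Slc22a19 (Oat5) carries sulfate conjugates at the brush border. It was measured at 57.5, 59.6 and 62.8 CPM in RC/+ and at 17.2, 20.8, 31.7, 33.1 and 35.0 CPM in RC/-, so the groups were apart, with a log2 difference of -1.17 ± 0.18 (SE, adjusted p = 1.35e-05). Slc22a7 (Oat2), a carrier of nucleotides and other anions that is better known from liver, did not follow the other anion carriers. Its RC/+ libraries were almost equal, at 6.37, 6.50 and 6.58 CPM, and its RC/- libraries scattered on both sides of them, at 3.67, 4.45, 5.75, 10.6 and 10.9 CPM. The log2 fold change was -0.014 ± 0.40 (SE, adjusted p = 0.984), which turned to 0.18 without RC/- replicate 17, so the direction of Slc22a7 was not determined.

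Slc22a12 (Urat1), the urate reabsorber of the brush border, had 129.98, 169 and 185 CPM in RC/+ and 56.0, 73.3, 73.9, 84.1 and 99.7 CPM in RC/-. The highest RC/- kidney stayed below the lowest RC/+ kidney, and the log2 fold change was -1.07 ± 0.17 (SE, adjusted p = 2.71e-05). Slc22a2 (Oct2), which takes up cations such as creatinine and metformin from the blood, had 98.6, 114 and 115 CPM in RC/+ and 36.9, 43.5, 55.9, 61.1 and 66.9 CPM in RC/-. These groups did not overlap either, with a log2 difference of -1.07 ± 0.14 (SE, adjusted p = 1.14e-06), or 47.5% of the RC/+ level.

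Slc22a5 and Slc22a4 fell least among the 8 called members. Slc22a5 (Octn2), the high-affinity carnitine transporter, was at 189, 192 and 204 CPM in RC/+ and at 87.7, 102, 111, 118 and 126 CPM in RC/-. The groups were apart and the spread within each was small, with a log2 difference of -0.85 ± 0.13 (SE, adjusted p = 8.87e-06), or 55.4% of the RC/+ level. Slc22a4 (Octn1), which carries ergothioneine, was at 24.2, 27.3 and 33.4 CPM in RC/+ and at 8.54, 13.6, 14.1, 18.4 and 25.2 CPM in RC/-. RC/- replicate 14, at 25.2 CPM, lay above the lowest RC/+ library, and the log2 fold change was -0.90 ± 0.22 (SE, adjusted p = 0.00251). A difference between the falls of Slc22a4 or Slc22a5 and those of the other members was not tested.

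Slc22a18, an orphan member of the family from an imprinted cluster, had the largest fall of the 9. It was at 191, 200.3 and 217 CPM in RC/+ and at 52.0, 57.1, 83.2, 84.9 and 129.7 CPM in RC/-. Even the highest RC/- kidney, replicate 14, was below RC/+, and the log2 fold change was -1.39 ± 0.20 (SE, adjusted p = 5.88e-06), or 38.1% of the RC/+ level. Across the members the same RC/- kidneys tended to be low: replicates 16 and 17 held the 2 lowest values for Slc22a2, Slc22a5, Slc22a6, Slc22a8, Slc22a12, Slc22a18 and Slc22a19.

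Markers of the proximal tubule moved with these falls. Of 20 markers, 18 were lower in RC/- and 0 higher, beside 12.2% and 25.5% over all genes. Their median log2 fold change was -1.48, and Cyp4b1 and Cyp2e1 did not pass. When each library was set relative to the mean log2 CPM of those 20 genes, every gene shifted by the same 1.36 on the log2 scale, so a member that stands above 0 there fell by less than the mean of the markers. On that scale 0 of 9 members were lower and 3 were higher in RC/-, where 88.7% of all genes were called higher. The called members were Slc22a4 at 0.46 (SE 0.19, adjusted p = 0.0275), Slc22a5 at 0.51 (SE 0.15, adjusted p = 0.00245) and Slc22a7 at 1.34 (SE 0.34, adjusted p = 5.10e-04). Slc22a18 stood at -0.033 (SE 0.14, adjusted p = 0.824) and Slc22a8 at 0.10 (SE 0.15, adjusted p = 0.514) relative to the markers. Markers of other cells moved in both directions. Of the thick ascending limb and distal convoluted tubule markers 7 of 9 were lower in RC/- (median log2 fold change -1.18), as were 5 of 6 podocyte markers (-0.98) and 4 of 6 endothelial markers (-0.33). Higher in RC/- were 12 of 12 macrophage, 9 of 11 tubule injury, 6 of 8 fibroblast and 8 of 13 collecting duct markers, with 3 of the 13 lower. Summed macrophage markers were at 298 to 317 CPM in RC/+ and 639 to 1160.0 CPM in RC/-, and summed collecting duct markers at 1468 to 1759 CPM and 2869 to 5284 CPM. Their part in the falls was not tested, and that of the proximal tubule markers was not tested beyond the rescaling.

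**Figure D2:**
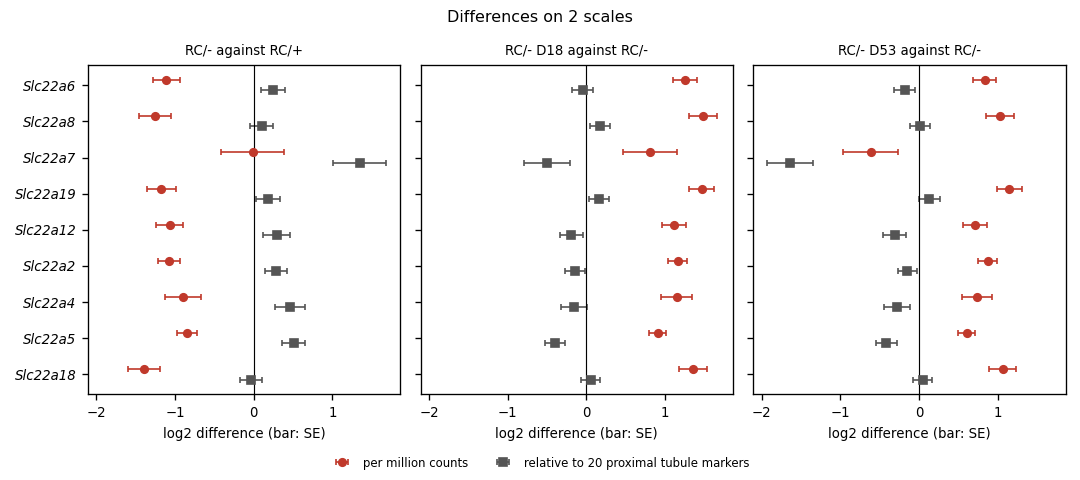
Log2 difference of each member in 3 comparisons, in CPM (red circles) and relative to the mean of 20 proximal tubule markers (grey squares), with standard errors. Relative to the markers most members lie within 0.5 of 0, and Slc22a7 lies at 1.34 in RC/- against RC/+ and at -1.63 in RC/- D53 against RC/-.

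Removal of the miR-17 site in the cystic genotype was next compared with the unedited RC/- kidneys. In RC/- D18, 8 of the 9 members were higher than in RC/-, where 14.3% of all genes were called higher, and in RC/- D53 the same 8 genes were higher, where 11.3% were. The median log2 fold change of the members was 1.16 in D18 and 0.83 in D53, beside medians over all genes of -0.10 and -0.081. Both comparisons use the same 5 RC/- libraries, which were also those of the comparison with RC/+.

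For the anion carriers, Slc22a6 was at 166, 180.5, 181, 199.7 and 248 CPM in the RC/- D18 kidneys and at 129, 138, 144, 145 and 169 CPM in the RC/- D53 kidneys, all above the highest RC/- value of 121 CPM. The log2 fold changes against RC/- were 1.25 ± 0.15 (SE, adjusted p = 3.11e-07) in D18 and 0.83 ± 0.15 (SE, adjusted p = 1.25e-04). Slc22a8 was at 288, 301, 314, 396 and 436 CPM in RC/- D18 and at 212, 242, 259.9, 269 and 276 CPM in RC/- D53. Every edited kidney was above the highest RC/- value of 166 CPM, and the log2 fold changes were 1.48 ± 0.18 (SE, adjusted p = 3.42e-07) in D18 and 1.03 ± 0.18 (SE, adjusted p = 8.05e-05).

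Slc22a19 was at 58.5, 70.8, 74.9, 75.0 and 90.7 CPM in RC/- D18 and at 52.7, 55.6, 59.8, 59.9 and 67.5 CPM in RC/- D53. Every edited kidney exceeded the RC/- maximum of 35.0 CPM, with log2 differences of 1.46 ± 0.16 (SE, adjusted p = 7.17e-08) in D18 and 1.15 ± 0.16 (SE, adjusted p = 4.94e-06), the largest of the 9 in D53. Slc22a7 behaved otherwise: it was at 6.63, 10.2, 10.6, 14.9 and 17.2 CPM in RC/- D18 and at 2.60, 3.72, 4.73, 4.73 and 5.74 CPM in RC/- D53. Both sets overlapped with RC/-, and the log2 fold changes had opposite signs, 0.81 ± 0.35 (SE, adjusted p = 0.0659) in D18 and -0.62 ± 0.35 (SE, adjusted p = 0.196) in D53. With TMM factors the D18 value passed at 0.92 (adjusted p = 0.0470).

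Slc22a12 was at 140.0, 148, 157, 170.0 and 218 CPM in RC/- D18 and at 106, 114, 128, 134 and 143 CPM in RC/- D53, above every RC/- kidney. Its log2 fold changes were 1.11 ± 0.15 (SE, adjusted p = 2.00e-06) in D18 and 0.71 ± 0.15 (SE, adjusted p = 7.75e-04). Slc22a2 was at 108, 112, 115, 117 and 126 CPM in RC/- D18, the smallest SD relative to the mean of the 9 members there, and at 82.4, 91.5, 97.5, 97.9 and 105 CPM in RC/- D53. No value overlapped with RC/-, and the log2 fold changes were 1.16 ± 0.12 (SE, adjusted p = 3.97e-08) in D18 and 0.87 ± 0.12 (SE, adjusted p = 5.16e-06).

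Slc22a5 was at 169.7, 181, 196, 214 and 266 CPM in RC/- D18 and at 149, 154, 159.7, 174 and 188 CPM in RC/- D53. These rises were the smallest of the called members in both lines, 0.91 ± 0.11 (SE, adjusted p = 4.45e-07) in D18 and 0.60 ± 0.11 (SE, adjusted p = 1.64e-04) on the log2 scale, although no library overlapped with RC/-. Slc22a4 was at 27.6, 28.7, 30.6, 39.95 and 42.4 CPM in RC/- D18 and at 22.2, 23.1, 25.4, 27.5 and 27.6 CPM in RC/- D53. RC/- replicate 14 at 25.2 CPM lay within the D53 range, and the log2 fold changes were 1.15 ± 0.19 (SE, adjusted p = 3.89e-05) in D18 and 0.74 ± 0.19 (SE, adjusted p = 0.00519). Slc22a18 was at 169, 169.8, 172, 237 and 255 CPM in RC/- D18 and at 131, 151, 172, 178 and 179.7 CPM in RC/- D53, all above RC/-, with log2 differences of 1.35 ± 0.17 (SE, adjusted p = 1.00e-06) in D18 and 1.06 ± 0.17 (SE, adjusted p = 4.88e-05).

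Counted over the 9 members, libraries did not overlap with RC/- for 8 in D18 and 7 in D53, where 9.01% and 6.98% of all genes were so separated upward. The proximal tubule markers rose with them, 18 of 20 in D18 and 18 of 20 in D53, with median log2 fold changes of 1.41 and 1.11 and summed levels of 22323 to 29719 and 18541 to 21766 CPM. Over all genes 14.3% in D18 and 11.3% in D53 were called higher, and 26.9% and 18.9% lower. In both lines 12 of 12 macrophage and 11 of 11 tubule injury markers were lower than in RC/-, and 7 of 9 thick ascending limb and distal convoluted tubule markers and 5 of 6 podocyte markers were higher. Their part in the rises was not tested. Relative to the markers of the proximal tubule, 1 member was lower in D18 than in RC/-, Slc22a5 at -0.40 (SE 0.13, adjusted p = 0.00536), where 89.6% of all genes were called lower on that scale. In D53, 2 members were lower, Slc22a5 at -0.41 (SE 0.13, adjusted p = 0.00421) and Slc22a7 at -1.63 (SE 0.29, adjusted p = 7.92e-06), where 83.5% of all genes were. No member was higher relative to the markers in either comparison at an adjusted p below 0.05.

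The D18 rises were also present in the libraries low in muscle transcripts. RC/- D18 replicates 18 and 19, which were low in them, had log2 means above RC/- by 0.69 for Slc22a7 and by 0.80 to 1.45 for the other 8 members, and replicates 20 to 22 by 0.89 and by 0.98 to 1.58. All 5 RC/- D53 libraries carried the muscle transcripts, so the D53 rises could not be computed without them. With libraries 20 to 27 as a covariate, which rests on the D18 replicates 18 and 19, 2 members kept their call in D53 against RC/-, Slc22a2 at 0.83 (SE 0.21) and Slc22a19 at 1.13 (SE 0.28). The other 6 were at 0.33 to 0.77, with standard errors of 0.19 to 0.33 in place of 0.11 to 0.19.

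**Figure D3:**
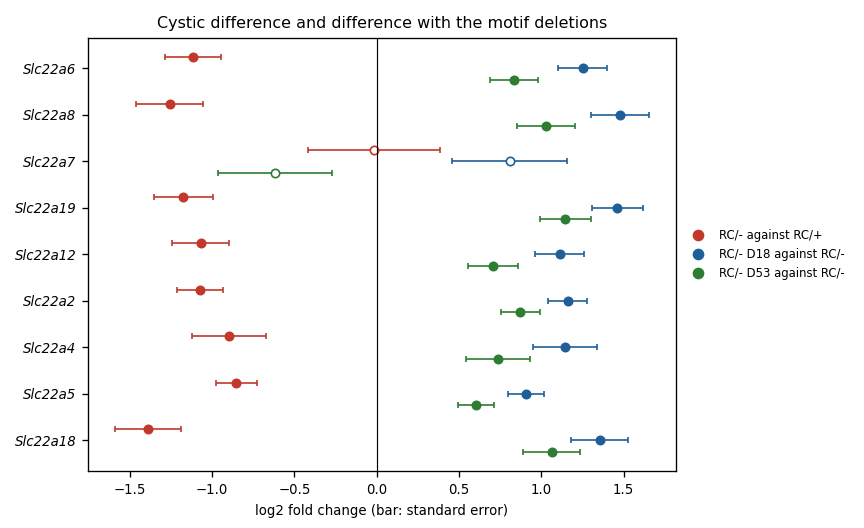
Log2 fold change with its standard error for each member in RC/- against RC/+ (red), RC/- D18 against RC/- (blue) and RC/- D53 against RC/- (green). Filled points passed an adjusted p below 0.05 and open points did not. The 8 called members lie on the left in red and on the right in blue and green, and Slc22a7 has open points in all 3 comparisons.

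The interaction contrast asks whether the cystic difference is unequal between an edited line and the unedited mice. For D18, 7 members were called, all with a higher (less negative or positive) cystic difference in the edited line, where 6.31% of all genes were called higher. Their differences of log2 fold changes were 1.40 for Slc22a19, 1.35 for Slc22a8, 1.22 for Slc22a18, 1.21 for Slc22a6, 1.17 for Slc22a2, 0.90 for Slc22a5 and 0.87 for Slc22a12. Slc22a4 at 0.85 ± 0.32 (SE, adjusted p = 0.0689) and Slc22a7 at 0.99 ± 0.57 (SE, adjusted p = 0.255) were not called. edgeR called 7 and DESeq2 8. For D53, 5 members were called, where 4.73% of all genes were called higher (5 with edgeR, 7 with DESeq2): Slc22a19 at 1.10, Slc22a18 at 1.08, Slc22a8 at 1.07, Slc22a2 at 0.82 and Slc22a6 at 0.80. Not called were Slc22a12 at 0.74 ± 0.24 (SE, adjusted p = 0.0526), Slc22a5 at 0.52 ± 0.18 (SE, adjusted p = 0.0597) and Slc22a4 at 0.71 ± 0.32 (SE, adjusted p = 0.156). Slc22a7 went the other way, at -0.48 ± 0.57 (SE, adjusted p = 0.656), and was not called either. With libraries 20 to 27 as a covariate the 5 were at 0.54 to 1.09 with standard errors of 0.26 to 0.38, and none was called. Without RC/+ D53 replicate 12, 3 members were called. Relative to the proximal tubule markers, 0 members were called in the D18 contrast, where 69.9% of all genes were called lower and 0.124% higher. In the D53 contrast Slc22a5 and Slc22a7 were lower, where 66.2% of all genes were called lower and 0.213% higher.

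In noncystic kidneys the removal of the site was followed by no called difference in the members. RC/+ D18 against RC/+ gave log2 fold changes between -0.19 (Slc22a7) and 0.30 (Slc22a4), with 0 of 9 called and 0 at an unadjusted p below 0.05, and 0.00443% of all genes were called. RC/+ D53 against RC/+ gave values between -0.14 (Slc22a7) and 0.08 (Slc22a5), again with 0 called and 0 at an unadjusted p below 0.05, and 0% of all genes were called. edgeR and DESeq2 called 0 in both. Standard errors of 0.14 to 0.45 on the log2 scale limit what these groups of 3 could show. Slc22a7 was the most variable member here, at 3.48, 3.79 and 13.8 CPM in RC/+ D18 and at 4.39, 5.20 and 8.88 CPM in RC/+ D53. The higher value of RC/+ D18 came from replicate 7, which was also the highest RC/+ D18 library for each of the other 8 members.

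Within each edited line the cystic kidneys were compared with their own noncystic controls. The unedited libraries did not enter these fold changes, but the spread of each gene was fitted over all 6 groups. In the D18 line 0 of 9 members were called, where 0.266% of all genes were, and 8 had log2 fold changes between -0.19 (Slc22a12) and 0.23 (Slc22a19). Slc22a7 was at 0.98 (SE 0.40, adjusted p = 0.455) and was the 1 member at an unadjusted p below 0.05. edgeR and DESeq2 called 0. In the D53 line 0 of 9 were called, where 2.6% of all genes were, but each of the 9 had a negative log2 fold change, from -0.49 (Slc22a7) to -0.072 (Slc22a19), beside a median of 0.041 over all genes. Libraries of Slc22a2, Slc22a5, Slc22a6 and Slc22a18 were all lower in RC/- D53 than in RC/+ D53, so 4 of 9 were separated downward, where 3.45% of all genes were. Muscle markers summed to 154 to 203 CPM in RC/- D53 and to 7.39 to 9.27 CPM in RC/+ D53, so that 7 of 7 muscle markers were higher (median 5.85), and they cannot be told apart from the genotype in this comparison. Also higher in RC/- D53 were 8 of 12 macrophage and 6 of 13 collecting duct markers, and the median of the proximal tubule markers was -0.35 with 1 of 20 lower. Their part was not tested. Slc22a5 was the 1 member at an unadjusted p below 0.05, with 202 to 215 CPM in RC/+ D53 and a log2 difference of -0.33 ± 0.13 (SE, adjusted p = 0.218). With only the 2 groups in the model it passed (adjusted p = 0.0411), and edgeR and DESeq2 called 0.

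**Figure D4:**
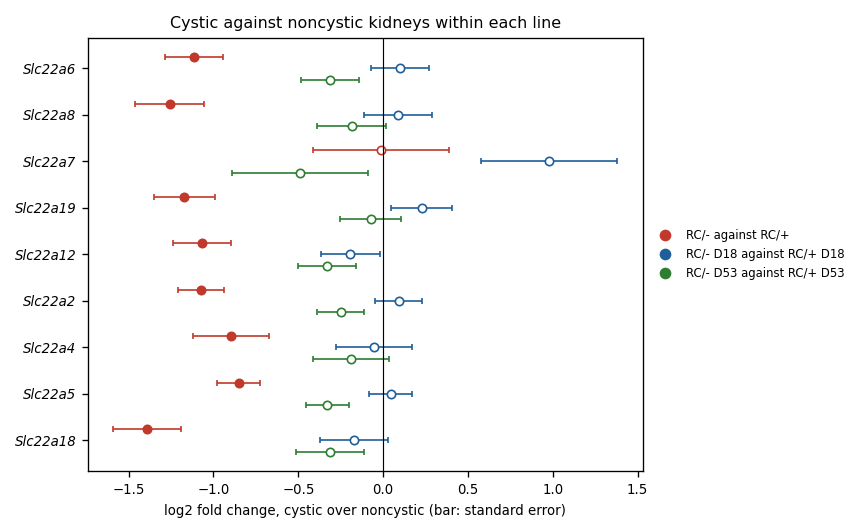
Log2 fold change of cystic over noncystic kidneys with its standard error for each member in the unedited mice (red), the D18 line (blue) and the D53 line (green). Filled points passed an adjusted p below 0.05. Red points of 8 members lie between -1.39 and -0.85, and green points lie between -0.49 and -0.072.

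The cystic kidneys of the edited lines were also set against each other. The lines differ in founder as well as in deletion, so founder background and edit cannot be told apart here. In the paper, unedited RC/- progeny of founder 2 (D53) also died earlier than those of founder 3 (D18). All 9 members were lower in RC/- D53 than in RC/- D18, with log2 fold changes from -1.42 to -0.29 and a median of -0.41, beside 0.029 over all genes. None passed the adjusted threshold, where 0.266% of all genes did, and 7 had an unadjusted p below 0.05, where 3.82% of all genes did so downward. Slc22a2, Slc22a4, Slc22a7 and Slc22a8 were separated downward, 4 of 9, where 0.798% of all genes were. Slc22a7 differed most: its 5 RC/- D53 values ended at 5.74 CPM and its 5 RC/- D18 values began at 6.63 CPM. The log2 fold change was -1.42 ± 0.35 (SE, adjusted p = 0.0808), and DESeq2 called it (adjusted p = 0.0239), as did the fit with only the 2 groups (adjusted p = 0.0379), while edgeR called 0 members. Within libraries 20 to 27, which leaves 3 D18 kidneys, the difference in log2 means was -1.50 for Slc22a7 and -0.31 to -0.57 for the other 8. Proximal tubule markers were also lower in RC/- D53, with a median of -0.25 and 0 of 20 called.

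Sex was read from the counts of Xist and Ddx3y, which gave 14 female and 10 male libraries with both sexes in every group. With the group in the model, 0 of 9 members were called different between the sexes at 18 days of age, where 0.0487% of all genes were. Other ages were not measured. edgeR and DESeq2 were not run for this contrast. The differences of female minus male were -0.028 to 0.27 on the log2 scale, and Slc22a7 had the largest, 0.27 (SE 0.23, adjusted p = 0.985). At an unadjusted p below 0.05 there were also 0 members.

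Of the other 16 Slc22 genes in the table, 14 passed the expression limit. In RC/-, 8 were lower and 1 higher than in RC/+, where 12.2% of all genes were called lower. Their median log2 fold change was -0.83. Slc22a22, a prostaglandin carrier, was at 7.91 ± 0.335 CPM in RC/+ (SD, n = 3) and 1.61 ± 0.562 CPM in RC/- (SD, n = 5), a log2 difference of -2.32 (adjusted p = 1.54e-05). Next to Slc22a19 lies a run of related genes, of which Slc22a27 and Slc22a29 had log2 fold changes of -1.88 and -1.82. Their transcripts are 96.8% identical over 2088 bases, so reads may be split between them, and the values of both are uncertain. Slc22a13, a urate and nicotinate carrier, had -1.11 and shares 681 bases at 99.3% identity with a pseudogene. Slc22a23, an orphan, had -0.56. Slc22a15 rose by 0.71 (adjusted p = 1.03e-04), and for higher genes the share over all genes was 25.5%. Slc22a21, between Slc22a4 and Slc22a5, had 0.36 (adjusted p = 0.151) and did not share their fall. In RC/- D18 8 of the 14 were higher and 3 lower than in RC/-, where 26.9% of all genes were called lower, and in RC/- D53 7 were higher and 3 lower, where 18.9% were. For higher genes the shares over all genes were 14.3% in D18 and 11.3% in D53.

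Carriers that work in series with the members were mostly lower in RC/- as well. Of 18 partner transporters and scaffold genes, 14 were lower and 1 higher than in RC/+, beside 12.2% and 25.5% over all genes. Their median log2 fold change was -1.09. Slc2a9 (Glut9), which passes urate across the basolateral membrane, was at 28.5 ± 2.04 CPM in RC/+ (SD, n = 3) and 9.27 ± 1.79 CPM in RC/- (SD, n = 5), a log2 difference of -1.63 (adjusted p = 7.42e-09). Pdzk1, a scaffold that holds Urat1 and other carriers at the brush border, had -1.57, and Slc5a8, a sodium-coupled monocarboxylate carrier, -1.54. Slc13a3, which supplies the dicarboxylates that Oat1 and Oat3 exchange, had -1.43, Slc47a1 (Mate1), the cation exit for Oct2 substrates, -1.12, and the urate pump Abcg2 -1.06. The phosphate and anion carriers Slc17a1 and Slc17a3 fell least of the called ones, by 0.91 and 0.92. Abcc4 (Mrp4), an anion efflux pump of the brush border, was at 41.5 ± 11.3 CPM in RC/+ (SD, n = 3) and 78.4 ± 10.8 CPM in RC/- (SD, n = 5). It rose by 0.94 (adjusted p = 4.88e-04) and was lower in RC/- D18 (-0.82) and RC/- D53 (-0.79) than in RC/-. In each edited cystic group 13 of the 18 were higher and 1 lower than in RC/-. Over all genes 14.3% in D18 and 11.3% in D53 were called higher, and 26.9% and 18.9% lower.

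Genes that make or use carnitine were mostly lower in RC/- too. Of 9 genes for carnitine synthesis and the carnitine shuttle, 8 were lower and 0 higher in RC/-, beside 12.2% and 25.5% over all genes. Their median log2 fold change was -0.63. Bbox1, the last enzyme of carnitine synthesis, had -1.68 (adjusted p = 2.64e-04), Shmt1 -0.79 and Aldh9a1 -0.71. The acyltransferases Crot, Cpt1a and Crat had -0.26, -0.42 and -0.52, and Slc25a20, the mitochondrial carnitine carrier, -0.24 (adjusted p = 0.131), which passed with TMM factors (adjusted p = 0.0204). All 9 were higher in RC/- D18 than in RC/- and 6 were in RC/- D53, where 14.3% and 11.3% of all genes were called higher.

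Purine breakdown yields the urate that Urat1 carries. Of 8 genes, 2 were higher, 1 was lower and 5 were not called in RC/-, shares near the 25.5% and 12.2% over all genes. Gda, guanine deaminase, was at 2.23 ± 0.803 CPM in RC/+ (SD, n = 3) and 9.43 ± 3.92 CPM in RC/- (SD, n = 5), a log2 difference of 2.02 (adjusted p = 6.64e-07), and Ampd3, an AMP deaminase, had 0.59, which was not called with TMM factors (adjusted p = 0.0542). Nt5e, which makes adenosine from AMP, had -0.64. Xdh, which makes urate itself, was at -0.016 (adjusted p = 0.959).

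Among 10 regulators of proximal tubule genes, 5 were lower and 1 higher in RC/-, beside 12.2% and 25.5% over all genes. Hnf4a, a nuclear receptor of the proximal tubule, was at 493 ± 5.63 CPM in RC/+ (SD, n = 3) and 215 ± 43.4 CPM in RC/- (SD, n = 5), a log2 difference of -1.22 (adjusted p = 1.21e-07). Ppara, the fatty acid sensor, had -1.34, and the nuclear receptors Nr1i2 and Nr1h4 -1.07 and -0.95. Cebpb was at 0.39 (adjusted p = 0.0446), a call lost with TMM factors (adjusted p = 0.237). The 5 lower genes were higher in RC/- D18 and in RC/- D53 than in RC/-, where 14.3% and 11.3% of all genes were called higher.

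Slc22a18 has imprinted neighbours on chromosome 7. Of 10 such genes, 4 were higher and 2 lower in RC/-, beside 25.5% and 12.2% over all genes, with a median log2 fold change of 0.28. Cdkn1c, a cell cycle inhibitor, had -1.67 (adjusted p = 0.00338) and Phlda2 -0.75. Kcnq1, a potassium channel, had 0.99 (adjusted p = 1.41e-06), Ascl2 1.03, Tssc4 0.28 and Cd81 0.23. With TMM factors Ascl2, Tssc4 and Cd81 were not called (adjusted p = 0.0625, 0.198 and 0.328).

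**Figure D5:**
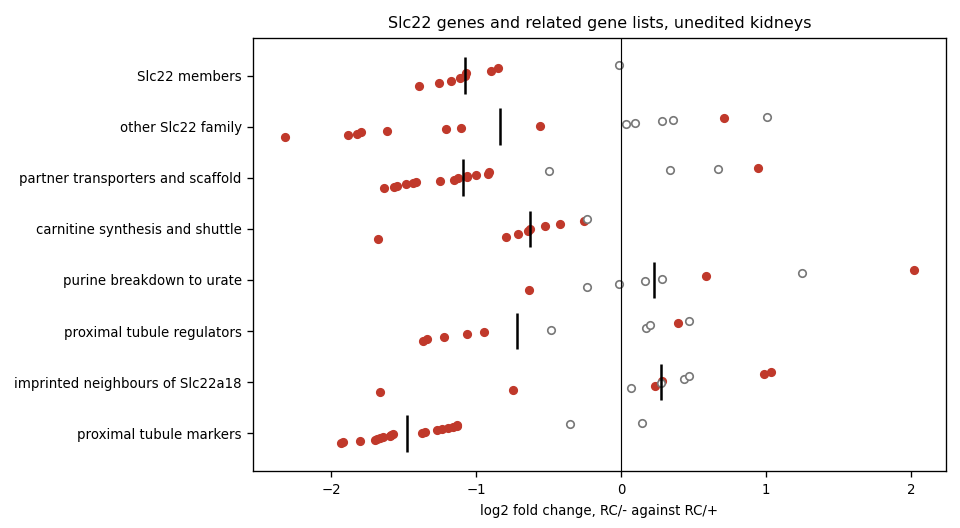
Log2 fold change of RC/- against RC/+ for each tested gene of 8 lists. Red points passed an adjusted p below 0.05, open points did not, and the black bar is the median of the list. The Slc22 members have a median of -1.07, between the regulators at -0.71 and the proximal tubule markers at -1.48, and Slc22a7 is the open point near 0.

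How the members varied together within groups was described by the correlation of deviations from the group means over the 24 libraries. These libraries share depth scaling and tissue makeup, and no test was made. All 36 pairs of members had a positive r, from 0.44 (Slc22a4 and Slc22a5) to 0.90 (Slc22a8 and Slc22a18). The gene most like a member among 15106 others was Miox for Slc22a18 (r = 0.944), Slc34a1, the phosphate carrier, for Slc22a8 (r = 0.941), Hao2 for Slc22a4 (r = 0.939), Ggt1 for Slc22a2 (r = 0.929) and for Slc22a19 (r = 0.888), and Myo7b for Slc22a12 (r = 0.924). Aspdh was most like Slc22a6 (r = 0.896) and Dglucy most like Slc22a7 (r = 0.835). The r with the mean of the 20 proximal tubule markers was highest for Slc22a18 (0.921) and lowest for Slc22a7 (0.535).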

How the data were processed

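Whole kidneys of 24 mice were profiled by RNA-seq, with 1 library per mouse. The authors trimmed reads with Trim Galore 0.6.3, aligned them with STAR 2.5.3a to GRCm38 and deposited raw counts per gene of an Ensembl annotation. Which strand column was kept is not given in the sources used here. Groups were taken from the sample labels, and no column of the table was left unused. Counts were turned into log2 CPM after adding a prior count of 2. Genes whose mean reached -3 were tested, and limma-trend (limma 3.58.1, R 4.3.3) was fitted over all 6 groups with Benjamini-Hochberg adjustment over all tested genes, since the methods of the study used limma. edgeR 4.0.16, DESeq2 1.42.0, TMM factors, other filters, a sex covariate and leaving out each library were alternatives. Scripts were tested on simulated data. P-values measure the spread between mice. Transcripts were compared with BLAST 2.17.0. The members and gene lists were chosen with earlier results of these data known. All 9 members are named, and from each list up to 3 called genes at each end of the fold changes, with genes of a direct role beside a member. The split of RC/- D18 by muscle transcripts was added after seeing the data. Some genes that this rule selects are not reported here.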

Additional observations from a re-analysis of the deposited data

Results flagged for a closer look

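The cystic difference was unequal between an edited line and the unedited mice by a test of the interaction itself for 12 combinations of member and line. In the D18 line the log2 difference of differences from the unedited mice was 1.17 for Slc22a2 (adjusted p = 2.03e-04), 0.90 for Slc22a5 (adjusted p = 0.00111), 1.21 for Slc22a6 (adjusted p = 0.00110), 1.35 for Slc22a8 (adjusted p = 0.00202), 0.87 for Slc22a12 (adjusted p = 0.0150), 1.22 for Slc22a18 (adjusted p = 0.00406) and 1.40 for Slc22a19 (adjusted p = 4.80e-04). In the D53 line it was 0.82 for Slc22a2 (adjusted p = 0.00728), 0.80 for Slc22a6 (adjusted p = 0.0327), 1.07 for Slc22a8 (adjusted p = 0.0166), 1.08 for Slc22a18 (adjusted p = 0.0149) and 1.10 for Slc22a19 (adjusted p = 0.00639). Of 20 proximal tubule markers, 18 were called higher in the D18 contrast and 15 in the D53 contrast, where 6.31% and 4.73% of all genes were. Both contrasts share the unedited libraries. None of the D53 calls was kept with libraries 20 to 27 as a covariate. Leaving out 1 library could also lose the call of Slc22a12 in D18 and of Slc22a6 or Slc22a8 in D53. No single library stood apart from its group by Dixon's criterion in 27 tests of the members in groups of 5, where chance gives about 1 in 20.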

How the results depend on the processing

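Relative to the 20 proximal tubule markers, 3 members were called higher in RC/- against RC/+ (88.7% of all genes), 1 lower for RC/- D18 against RC/- (89.6%), 2 lower for RC/- D53 against RC/- (83.5%), 0 in the D18 interaction (69.9% lower) and 2 lower in the D53 interaction (66.2%). This scaling moves every gene of a comparison by the same amount (1.36, -1.30, -1.02, -1.15 and -1.04 in this order), so a changed sign says only that a member moved by less than the mean of the markers. Signs in RC/- against RC/+ changed for Slc22a2 (0.28), Slc22a4 (0.46), Slc22a5 (0.51), Slc22a6 (0.24), Slc22a7 (1.34), Slc22a8 (0.10), Slc22a12 (0.29) and Slc22a19 (0.18). In RC/- D18 against RC/- it did so for Slc22a2 (-0.14), Slc22a4 (-0.16), Slc22a5 (-0.40), Slc22a6 (-0.049), Slc22a7 (-0.49) and Slc22a12 (-0.19), and in RC/- D53 for Slc22a2 (-0.15), Slc22a4 (-0.28), Slc22a5 (-0.41), Slc22a6 (-0.18) and Slc22a12 (-0.31). Among the members called there, the D18 interaction changed sign for Slc22a5 (-0.26) and Slc22a12 (-0.28), and the D53 interaction for Slc22a2 (-0.21) and Slc22a6 (-0.24). Among those not called it did so for Slc22a4 (-0.31) and Slc22a7 (-0.16) in D18 and for Slc22a4 (-0.33), Slc22a5 (-0.51) and Slc22a12 (-0.30) in D53. With libraries 20 to 27 as a covariate, 2 members were called in RC/- D53 against RC/- and 0 in the D53 interaction, with the 8 members called without it still positive at 0.33 to 1.13 in the former and larger standard errors. With only the groups compared, 1 member was called within the D53 line and 1 between RC/- D53 and RC/- D18, where DESeq2 also called 1. Slc22a7 in RC/- against RC/+ was at 0.0040 with a sex covariate. Leaving out 1 library gave -0.20 to 0.18 for it, 3 to 7 calls in the D53 interaction (3 without RC/+ D53 replicate 12), 6 to 9 in the D18 interaction, 8 to 9 in RC/- D18 against RC/-, and the reported count elsewhere. The cause of the other changes was not tested. No paired analysis was made because the labels name no litters or pairs. Groups of 3 and 5 mice limit what can be told apart, and Slc22a7, with as few as 71 counts in a library, was the least precise member.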
